A study of Homo sapiens with 12 samples.

Results

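The data are polyadenylated RNA of 786-O cells that carried an empty vector, compared between tumours grown in mice and dishes. 786-O is an established human line from clear cell renal cell carcinoma, a kidney tumour thought to arise from the proximal tubule. The series holds 12 libraries, and the 6 used for the main comparison were chosen by their labels alone, 3 from empty-vector xenografts and 3 from empty-vector cells in culture. The xenografts grew in NOD SCID gamma (NSG) mice of 6 to 8 weeks fed a regular diet, and whole tumours were homogenised. The cultured cells grew in 6-well plates in DMEM with 10% fetal bovine serum. Both groups had been infected with an empty lentiviral vector and selected with puromycin or neomycin. Both therefore share the infection and a drug selection, and neither received BBOX1, the enzyme for the last step of carnitine synthesis, which the study restored in the other 6 libraries, 3 from BBOX1 xenografts and 3 from BBOX1 cells. The labels do not give the site of implantation, the tumour size or the time of growth, nor whether the 3 replicates came from separate mice or cultures, so the p-values measure the spread between these libraries, which may in part be technical.

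A cultured tumour cell receives serum, glucose and air in excess and grows on plastic. In a xenograft the same cell lies in a tissue with its own vessels, matrix and stroma, where oxygen and nutrients vary. NSG mice lack T, B and natural killer cells but keep macrophages, neutrophils, endothelium and fibroblasts, so a whole tumour also holds mouse RNA. 786-O cells have lost VHL, the factor that marks hypoxia-inducible factors (HIF) for destruction, so that EPAS1 protein, the HIF subunit they make, is present even in air.

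Total counts were 15171681 to 18937852 in the xenografts and 16317539 to 22067530 in culture, and precision below is limited by 3 libraries per group. The spread between replicates was wider in the tumours, with a biological coefficient of variation of 12.7% in xenografts and 3.44% in culture. Mitochondrially encoded genes held 6.78% to 8.99% of counts in xenografts and 3.25% to 3.54% in culture, and the 50 most abundant genes held 18.7% to 19.9% in xenografts and 12.7% to 12.8% in culture. Across 13012 protein-coding genes, the log2 fold change had a Spearman rho of -0.23 with exon length, 0.30 with GC content and -0.23 with mean level, as descriptions over genes that are not independent, and the part of RNA quality in the results was not tested. BBOX1 itself (chromosome 11, 27040725 to 27127809, GRCh38) had 10, 6 and 14 counts in the empty-vector xenografts and 0 in each empty-vector culture library, at least 11.2-fold higher against a floor of 3 counts over the 3 libraries. On a scale shared by all 12 libraries BBOX1 averaged 0.607 CPM in empty-vector xenografts and 1514 CPM in BBOX1 xenografts. The kit does not mark strand, so reads of BBOX1 and of an overlapping antisense transcript cannot be told apart.

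Most measured genes differed between xenograft and culture. Of 15914 genes tested with edgeR's quasi-likelihood test, 5650 (35.5%) were higher and 5273 (33.1%) lower in xenografts than in culture at an adjusted p under 0.05, which is 68.6% in either direction. Large rises were more frequent than large falls: 2889 genes rose at least 2-fold (18.2% of those tested) and 1569 fell at least 2-fold (9.86%), and the median fold was 2.04 among genes that rose and 1.65 among genes that fell. The groups did not overlap in CPM, which are read counts scaled to a common library size, for 11631 genes (73.1%). CPM values below are scaled by edgeR's TMM factors within these 6 libraries and given for replicates 1, 2 and 3 in turn. A fold change is xenograft over culture on the log2 scale, ± its standard error, over 3 libraries in each group. With so many genes past the threshold, a count of list members is read against 35.5% and 33.1%. Genes that passed the low-count filter through one setting alone had fewer than 3 libraries of the other setting at about 0.591 CPM. They are counted beside their list, since the filter favoured a difference in that direction. Their counts, and the fold change and adjusted p of each such gene, are a description. In lists with no such number, at most 1 member passed through either setting alone. In whole-tumour RNA, fewer cells of a kind and less RNA per cell cannot be told apart.

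**Figure D1:**
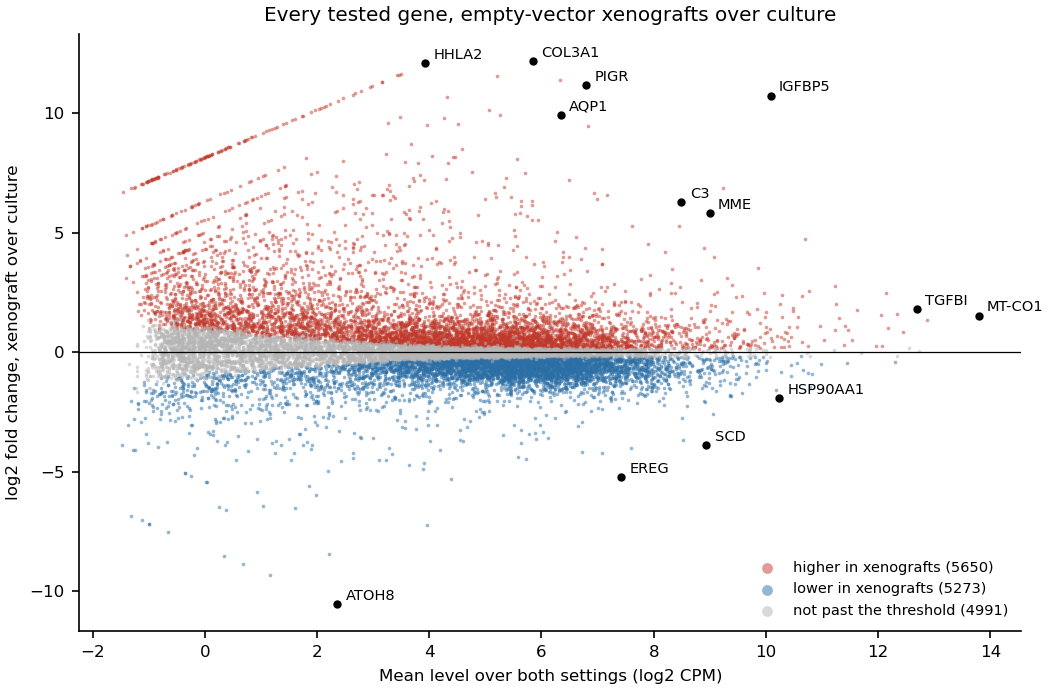
Each point is 1 of 15914 tested genes, placed by its mean level over both settings (log2 CPM) and its log2 fold change, xenograft over culture; red points were higher, blue points lower and grey points not past the adjusted p threshold. Points above 0 reach further than points below it, and the straight band at the upper left holds genes with 0 counts in culture, whose fitted change depends on the prior count.

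Some genes were measured in a single setting. With a mean under 0.1 CPM in one setting and at least 1 CPM in every library of the other, 161 protein-coding genes were found in xenografts alone and 14 in culture alone, a description with no test. HHLA2, a ligand of the B7 family that lymphocytes bind, had 34.7, 34.3 and 22.6 CPM in xenografts and 0 counts in each culture library, at least 573-fold higher. For SLC38A3, a glutamine transporter of kidney and liver, the bound was 425-fold, for the myelin and lymphocyte protein MAL 398-fold and for the amine oxidase AOC1 343-fold. COL3A1, the chain of type III collagen, had 97.7, 119.9 and 128 CPM in xenografts against 1 count over the 3 culture libraries, a ratio of 6559, with a Clopper-Pearson 95% interval of 1177 to 259094 that covers counting error only. CXCR4, the receptor of the chemokine CXCL12 and a HIF target, had 69.6, 65.3 and 87.8 CPM in xenografts against 1 count in culture, a ratio of 4185 with an interval of 751 to 165345. The fatty acid binding protein FABP7 had 198, 157 and 126 CPM in xenografts against 3 counts in culture, a ratio of 2987 with an interval of 1022 to 14486. The single count of COL3A1 and of CXCR4 came from culture replicate 1 and the 3 counts of FABP7 from culture replicate 2, and without those libraries culture held 0 counts of each.

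Going the other way, ATOH8, a basic helix-loop-helix factor, had 0 counts in each xenograft and 11.2, 10.4 and 9.20 CPM in culture, at least 171-fold lower in xenografts. The actin bundler LCP1 was at least 53.5-fold lower and the surface receptor SLAMF7 at least 42.2-fold lower, both with 0 counts in xenografts. EREG, which encodes the EGFR ligand epiregulin, was still measured in tumours, with 10.1, 9.62 and 7.25 CPM in xenografts against 322, 343 and 332 CPM in culture. All 3 xenografts lay far below all 3 cultures (log2 fold change -5.21 ± 0.10, adjusted p = 3.77e-12). Among abundant genes, TGFBI, a matrix protein, and IGFBP3 rose, as did VIM, the intermediate filament of mesenchymal cells: TGFBI had 7350.5, 11505 and 12007 CPM in xenografts against 2905, 2987 and 2941 CPM in culture (log2 fold change 1.80 ± 0.15, adjusted p = 3.12e-07). IGFBP3, which binds insulin-like growth factors, rose by 2.47 ± 0.09 (adjusted p = 2.84e-10) and VIM by 1.10 ± 0.07 (adjusted p = 3.99e-08). Abundant genes that fell at least 2-fold included the nucleolar protein NCL (-1.02 ± 0.07), the integrin beta chain ITGB1 (-1.01 ± 0.10), the scaffold AHNAK (-1.47 ± 0.08) and the translation factor EIF4G1 (-1.01 ± 0.07), each without overlap between settings. Other abundant genes fell by less, such as FLNA (-0.40 ± 0.11), with means of 4344 CPM in xenografts and 5744 CPM in culture.

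**Figure D2:**
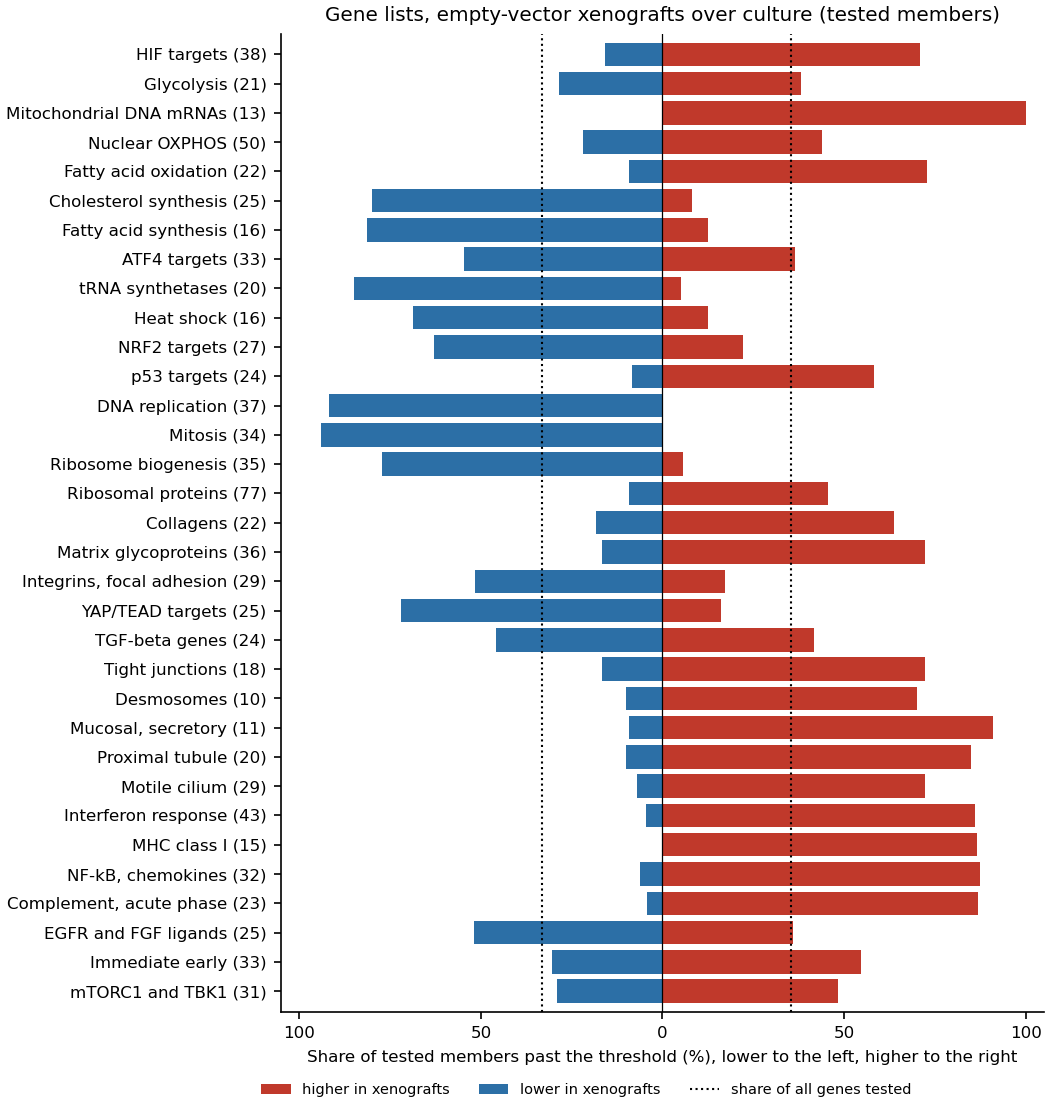
Bars give, for each gene list, the share of its tested members (number in brackets) that were higher (right, red) or lower (left, blue) in empty-vector xenografts than in culture; dotted lines mark 35.5% and 33.1%, the shares of all 15914 genes tested. Mitosis, DNA replication, cholesterol synthesis and tRNA synthetases lie to the left, and interferon, MHC class I, complement and chemokine genes to the right.

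Most listed genes that HIF induces were higher in the xenografts. Of 38 listed HIF targets, each of which passed the low-count filter, 27 rose and 6 fell, with a median log2 fold change of 0.79 against 0.04 over all genes tested. Among the listed targets, 4 passed the filter through the xenografts alone, CA9 being one of them, and 1 through culture alone. CA9 and CA12 are surface carbonic anhydrases that help cells dispose of acid, and CA9 protein is a common marker of this tumour. CA9 had 30.3, 59.6 and 30.5 CPM in xenografts against 1.07, 0.535 and 1.01 CPM in culture. Every xenograft was above every culture library, with replicate 2 highest (log2 fold change 5.50 ± 0.34, adjusted p = 2.19e-08). CA12 had 1655, 1929.8 and 1550.1 CPM in xenografts against 143, 153 and 149 CPM in culture, again without overlap (log2 fold change 3.53 ± 0.09, adjusted p = 1.78e-11). ANGPTL4, a secreted inhibitor of lipoprotein lipase, had 276, 252 and 329.7 CPM in xenografts against 2.55, 3.09 and 3.26 CPM in culture. This was the widest gap among the targets measured in both settings by more than a few counts (log2 fold change 6.58 ± 0.13, adjusted p = 3.77e-12). EGLN3, the prolyl hydroxylase that HIF induces and that acts on HIF in turn, had 529, 543 and 599 CPM in xenografts against 76.1, 74.2 and 76.4 CPM in culture (log2 fold change 2.88 ± 0.07, adjusted p = 1.23e-11). VEGFA, the ligand that drives vessel growth, had 3097, 3378 and 2522 CPM in xenografts against 498, 489 and 529 CPM in culture (log2 fold change 2.57 ± 0.10, adjusted p = 6.14e-10). The groups were far apart for both.

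Other targets that rose were NDRG1, a stress-response protein (2.78 ± 0.10), HILPDA, an inhibitor of lipid breakdown (2.76 ± 0.08), PLIN2, the coat protein of lipid droplets (2.48 ± 0.09), and the cyclin gene CCND1 (0.79 ± 0.10). The list did not move as one. STC2, a secreted glycoprotein also induced by ATF4, had 10.8, 11.7 and 8.37 CPM in xenografts against 106, 110.1 and 108 CPM in culture, with no overlap (log2 fold change -3.39 ± 0.10, adjusted p = 6.02e-11). BNIP3, a receptor for mitophagy, fell by 0.43 ± 0.07 and PFKFB3, which makes the activator of phosphofructokinase, by 0.80 ± 0.06. The factors themselves were not past the threshold: EPAS1 had 215, 264 and 277 CPM in xenografts against 241, 241 and 236 CPM in culture, overlapping (log2 fold change 0.07 ± 0.08, adjusted p = 0.459), and HIF1A had 67.5, 80.8 and 48.6 CPM in xenografts against 74.0, 70.6 and 75.0 CPM in culture, overlapping too (log2 fold change -0.16 ± 0.14, adjusted p = 0.322). Single libraries mattered for both: without xenograft replicate 1 EPAS1 passed at 0.18 (adjusted p = 0.00984, and 0.00984 to 0.976 over its alternatives), and without xenograft replicate 2 HIF1A passed at -0.35 (adjusted p = 0.0168, and 0.0168 to 0.952 over its alternatives). Of 9 listed genes of HIF and its regulators 8 were tested, 1 rose and 2 fell, and without xenograft replicate 1 the number that rose was 2.

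The start regions of 4 of these genes are printed as the 250 bases before the RefSeq start (GRCh38.p14), since the hypoxia response element that HIF binds has the core ACGTG or GCGTG. Capitals mark that core on either strand, and the genes were chosen after their values were seen.
CA9 (chr9:35673678-35673927, + strand): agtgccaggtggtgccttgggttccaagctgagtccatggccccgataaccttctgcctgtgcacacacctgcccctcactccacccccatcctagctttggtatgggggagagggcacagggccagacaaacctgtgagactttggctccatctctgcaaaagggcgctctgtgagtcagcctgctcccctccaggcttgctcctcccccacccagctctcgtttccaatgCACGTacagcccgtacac
ANGPTL4 (chr19:8363905-8364154, + strand): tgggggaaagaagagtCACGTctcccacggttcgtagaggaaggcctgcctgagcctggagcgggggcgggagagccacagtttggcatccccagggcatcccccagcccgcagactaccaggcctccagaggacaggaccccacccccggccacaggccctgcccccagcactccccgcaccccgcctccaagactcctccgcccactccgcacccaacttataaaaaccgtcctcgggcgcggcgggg
EGLN3 (chr14:33951075-33951324, - strand): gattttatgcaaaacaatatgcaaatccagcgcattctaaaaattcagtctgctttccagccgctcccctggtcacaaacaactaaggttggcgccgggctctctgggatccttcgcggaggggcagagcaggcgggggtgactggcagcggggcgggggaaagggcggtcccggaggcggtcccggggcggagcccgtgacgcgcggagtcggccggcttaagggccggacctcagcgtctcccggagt
PLIN2 (chr9:19127493-19127742, - strand): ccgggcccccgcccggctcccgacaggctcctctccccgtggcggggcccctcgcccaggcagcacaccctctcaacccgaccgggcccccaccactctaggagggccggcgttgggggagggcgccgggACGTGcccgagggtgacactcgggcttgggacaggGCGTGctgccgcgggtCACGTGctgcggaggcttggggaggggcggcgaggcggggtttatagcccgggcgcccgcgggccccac
CA9 held 1 match, beginning 18 bases before the start, ANGPTL4 held 1, PLIN2 held 4 within its last 120 bases, and EGLN3 held 0. The PLIN2 matches that begin 69 and 68 bases before the start overlap, being 1 stretch, CACGTG, read on both strands. Over the window of 250 bases before to 50 after the start, the core was present in 80% of the 30 HIF targets with a RefSeq entry, against 62.8% of 10819 tested genes with an entry and 48.4% of all 27305 promoters in the table. A short motif of this kind occurs often, and a match is a description of the letters.

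Glycolytic genes were split. Of 21 listed genes, 8 rose and 6 fell, shares close to those of all genes, and the median of 0.04 turned negative under total count scaling (-0.05). The glucose transporter SLC2A1 had 1127, 1396 and 1312 CPM in xenografts against 915, 942 and 924 CPM in culture, a small rise without overlap (log2 fold change 0.46 ± 0.08, adjusted p = 0.000218). PFKL, the liver form of phosphofructokinase, rose by 0.81 ± 0.06, whereas PGAM1, phosphoglycerate mutase, had 355, 376 and 408 CPM in xenografts against 838, 838 and 831 CPM in culture (log2 fold change -1.14 ± 0.07, adjusted p = 1.77e-08). LDHA, which makes lactate, had 1579, 1738 and 1696 CPM in xenografts against 1680.2, 1704 and 1758 CPM in culture, and these ranges overlapped (log2 fold change -0.04 ± 0.07, adjusted p = 0.643).

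Transcripts made from mitochondrial DNA were all higher in the tumours. Of 13 mitochondrial mRNAs, 13 rose, with a median of 1.36. MT-CO1, a core subunit of cytochrome oxidase, had 23495, 17293 and 22444 CPM in xenografts against 7022, 7075 and 7672 CPM in culture (log2 fold change 1.54 ± 0.11, adjusted p = 1.04e-07). MT-CYB of the bc1 complex had 5548, 4373 and 4726 CPM in xenografts against 1379, 1393 and 1479 CPM in culture (log2 fold change 1.78 ± 0.09, adjusted p = 5.32e-09). All xenografts were above all cultures for both. These rises move with the share of mitochondrial counts given above, nuclear copies of mitochondrial DNA can share such reads, and the part of sample handling was not tested. Among 50 respiratory chain and ATP synthase genes of the nucleus, 22 rose and 11 fell, with a median of 0.16. COX6B1, of cytochrome oxidase (0.89 ± 0.07), and ATP5F1E, of ATP synthase (0.80 ± 0.09), were higher, and NDUFS1 of complex I (-0.79 ± 0.07) and ATP5F1B, the catalytic chain of ATP synthase (-0.55 ± 0.07), were lower.

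Genes that burn fatty acids mostly rose. In a list of 25 genes of carnitine handling and fatty acid oxidation, 22 passed the filter, of which 16 rose and 2 fell. CPT1A, the enzyme that joins long fatty acids to carnitine for entry into mitochondria, had 39.0, 35.3 and 53.2 CPM in xenografts against 5.63, 5.41 and 4.97 CPM in culture, with the lowest xenograft far above the highest culture (log2 fold change 2.997 ± 0.16, adjusted p = 5.98e-09). ACADVL, the first dehydrogenase for very long chains, had 516, 449 and 488 CPM in xenografts against 231, 225 and 231 CPM in culture (log2 fold change 1.08 ± 0.07, adjusted p = 2.56e-08). SLC22A5, the carnitine importer, rose by 0.75 ± 0.10 (adjusted p = 2.23e-05).

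Genes that make sterols and fatty acids mostly fell. Of 25 genes of cholesterol synthesis and uptake, 20 fell and 2 rose, with a median of -1.24. HMGCS1, an early synthase of the pathway, had 49.1, 56.2 and 50.2 CPM in xenografts against 123, 122 and 133 CPM in culture, with all xenografts below culture (log2 fold change -1.28 ± 0.07, adjusted p = 1.08e-08). The sterol reductase TM7SF2 was one of the 2 that rose, with 19.0, 13.1 and 15.9 CPM in xenografts against 4.98, 4.57 and 4.97 CPM in culture (log2 fold change 1.72 ± 0.16, adjusted p = 8.93e-07). Of 16 genes of fatty acid synthesis, 13 fell, with a median of -1.11. SCD, the desaturase that makes oleate, had 60.0, 71.3 and 57.0 CPM in xenografts against 913, 932 and 912 CPM in culture. No other member fell as far (log2 fold change -3.87 ± 0.09, adjusted p = 8.3e-12). FASN, fatty acid synthase, had 139.7, 128 and 136 CPM in xenografts against 663, 641 and 613 CPM in culture (log2 fold change -2.25 ± 0.07, adjusted p = 5.37e-11), and ACACA, which makes malonyl-CoA, fell by 1.85 ± 0.08. The citrate lyase gene ACLY was one of 2 members called higher, at 0.19 ± 0.07 (adjusted p = 0.0277), a call lost without each of culture replicates 1, 2 and 3 (adjusted p = 0.117, 0.109 and 0.13) and without xenograft replicate 2 (adjusted p = 0.158). The call was also lost under total count scaling, with no filter and with all 12 libraries in 1 fit. Its adjusted p ranged from 0.00194 to 0.194 over the alternatives.

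Genes that store and release lipid moved in both directions. Of 19 tested lipid droplet genes among 25 listed, 9 rose and 6 fell, and 4 had passed the filter through the xenografts alone and 1 through culture alone. PLIN2 had 514, 648 and 538 CPM in xenografts against 102, 100.3 and 103 CPM in culture, with no overlap (log2 fold change 2.48 ± 0.09, adjusted p = 2.38e-10). DGAT1, one enzyme for the last step of triglyceride synthesis, rose by 0.88 ± 0.07, and DGAT2, the other, had 1.67, 0.435 and 1.002 CPM in xenografts against 4.68, 4.40 and 4.36 CPM in culture (log2 fold change -2.14 ± 0.36, adjusted p = 0.000161). DGAT2 was tested through culture alone. In a list of 10 genes of cholesterol export, 8 were tested, 5 rose and 1 fell: APOE, a lipoprotein component, had 14.9, 10.1 and 7.61 CPM in xenografts against 0.237, 0.475 and 0.528 CPM in culture (log2 fold change 4.65 ± 0.34, adjusted p = 1.09e-07), while ABCA1, the exporter to high-density lipoprotein, had 115, 116 and 88.7 CPM in xenografts against 249.8, 260.5 and 261 CPM in culture (log2 fold change -1.27 ± 0.09, adjusted p = 1.04e-07). APOE was tested through the xenografts alone. The start region of HMGCS1 is shown beside the sterol list because CCAAT boxes are known to accompany sterol response elements. Capitals mark CCAAT on either strand in the 250 bases before the first of 2 RefSeq starts (GRCh38.p14).
HMGCS1 (chr5:43313413-43313662, - strand): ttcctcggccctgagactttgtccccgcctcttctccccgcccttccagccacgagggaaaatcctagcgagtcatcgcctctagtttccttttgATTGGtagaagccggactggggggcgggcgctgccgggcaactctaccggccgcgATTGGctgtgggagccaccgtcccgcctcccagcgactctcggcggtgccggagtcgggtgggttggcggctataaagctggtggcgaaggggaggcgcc
CCAAT was found 2 times in it, and in 83.3% of the 18 cholesterol genes with an entry, against 36.4% of tested genes and 35.7% of all promoters.

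**Figure D3:**
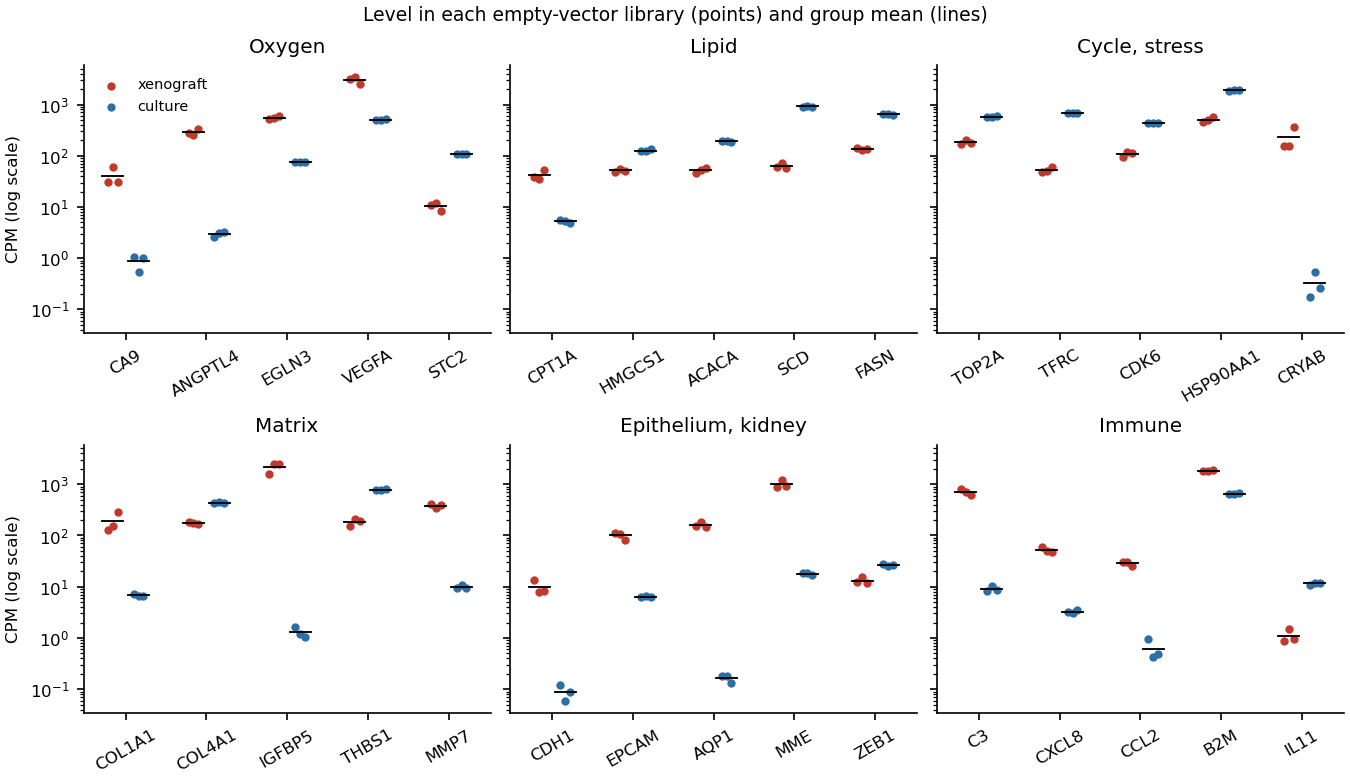
CPM (log axis) of 30 genes in each of the 3 empty-vector xenografts (red, left) and 3 cultures (blue, right), with a line at each group mean. Xenograft points lie above culture for CA9, ANGPTL4, CPT1A, AQP1 and C3 and below it for STC2, SCD, TFRC, THBS1 and IL11.

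Stress programmes did not move in 1 direction. The listed ATF4 targets serve amino acid supply and the stress response: of 33 tested, 12 rose and 18 fell. The cystine importer SLC7A11 had 8.83, 10.98 and 8.55 CPM in xenografts against 96.0, 102 and 103 CPM in culture. All xenografts were far under culture (log2 fold change -3.40 ± 0.10, adjusted p = 3.53e-11). PSAT1, of serine synthesis, fell by 1.58 ± 0.07 and SLC1A5, a glutamine importer, by 1.72 ± 0.08, whereas CEBPB, a transcription factor of the stress and acute phase responses, rose by 1.51 ± 0.08. Of other stress genes in the list, TRIB3 rose by 0.94 ± 0.06 and DDIT3 by 0.90 ± 0.16, while CHAC1 fell by 1.97 ± 0.17. ASNS, the asparagine synthetase often used as a readout of ATF4, had 1.67, 1.196 and 1.95 CPM in xenografts against 1.54, 1.49 and 1.72 CPM in culture, overlapping (log2 fold change 0.01 ± 0.31, adjusted p = 0.975). It rested on 25, 22 and 33 counts in xenografts and 26, 25 and 39 in culture, too few to show a small change. Loss of ASNS reads in the counting was not tested. Of 20 cytosolic aminoacyl-tRNA synthetases, which charge tRNAs for translation, 17 fell and 1 was called higher, with a median of -0.87. The 1 higher call was lost without any one of the 3 culture libraries, without xenograft replicate 3, with DESeq2, under total count scaling, with no filter, under the replicate block, without mitochondrially encoded genes and with all 12 libraries in 1 fit. There were 2 without xenograft replicate 1 and with protein-coding genes alone. Of those that fell, IARS for isoleucine had 121, 145 and 147 CPM in xenografts against 453, 445 and 460.0 CPM in culture (log2 fold change -1.72 ± 0.08, adjusted p = 1.78e-09).

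Heat shock genes were mostly lower. Of 16 chaperones and regulators, 11 fell and 2 rose, with a median of -1.07. HSP90AA1, the inducible cytosolic chaperone, had 449.8, 503 and 566 CPM in xenografts against 1854, 1904 and 1955 CPM in culture, with no overlap (log2 fold change -1.91 ± 0.09, adjusted p = 1.51e-09). HSPH1, a large cochaperone, had 50.3, 41.6 and 74.8 CPM in xenografts against 277, 283 and 276 CPM in culture (log2 fold change -2.33 ± 0.16, adjusted p = 5.06e-08). CRYAB, a small heat shock protein, went against the list with 156, 157 and 370.5 CPM in xenografts against 0.178, 0.535 and 0.264 CPM in culture. Xenograft replicate 3 was the highest, and the groups were far apart (log2 fold change 9.45 ± 0.51, adjusted p = 7.68e-09). CRYAB was tested through the xenografts alone. HSPB1, another small chaperone, rose by 1.05 ± 0.10. In the unfolded protein response list, 15 of 27 rose and 8 fell, among them HSP90B1, the chaperone of the endoplasmic reticulum (0.82 ± 0.07), and SEL1L, of the degradation complex there (-0.88 ± 0.08).

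Targets of NRF2, the regulator of oxidant defence, were lower for 17 of 27 tested and higher for 6. NQO1, a quinone reductase, had 67.8, 70.0 and 73.7 CPM in xenografts against 152, 153 and 148 CPM in culture (log2 fold change -1.10 ± 0.06, adjusted p = 1.06e-08). GCLM, of glutathione synthesis, fell by 1.57 ± 0.07 and TXNRD1, thioredoxin reductase, by 1.15 ± 0.09. HMOX1, which breaks down haem, had 69.8, 90.1 and 60.4 CPM in xenografts against 40.5, 38.8 and 36.1 CPM in culture, all xenografts above culture (log2 fold change 0.94 ± 0.12, adjusted p = 2.01e-05). Among 24 p53 targets, 14 rose and 2 fell, with a median of 0.34: TP53I3, a quinone oxidoreductase, had 26.0, 26.5 and 26.2 CPM in xenografts against 4.80, 6.89 and 5.15 CPM in culture (log2 fold change 2.23 ± 0.13, adjusted p = 1.83e-08), BTG2, an antiproliferative gene, rose by 1.91 ± 0.16, the cell cycle inhibitor CDKN1A rose by 0.41 ± 0.12, and MDM2, which degrades p53, fell by 0.54 ± 0.07.

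Genes of cell division were lower in the tumours. Of 37 DNA replication genes, 34 fell and 0 rose, with a median of -0.84, and of 34 mitotic genes, 32 fell and 0 rose, with a median of -1.04. TOP2A, the topoisomerase of dividing cells, had 166, 206 and 180.5 CPM in xenografts against 577, 577 and 585 CPM in culture, with no overlap (log2 fold change -1.65 ± 0.08, adjusted p = 2.58e-09). MKI67, which encodes the marker Ki-67, had 241, 304 and 261 CPM in xenografts against 711, 682 and 677 CPM in culture (log2 fold change -1.36 ± 0.08, adjusted p = 2.25e-08). CCNB1, the mitotic cyclin, had 77.1, 81.4 and 74.1 CPM in xenografts against 154, 159 and 153 CPM in culture (log2 fold change -1.001 ± 0.06, adjusted p = 2.7e-08). All 3 were lower in every xenograft, with no overlap. Of 12 tested CDK inhibitors and quiescence genes 5 rose and 6 fell. MCM10, needed to start replication forks, fell by 2.00 ± 0.08, HMMR, a spindle protein, by 1.67 ± 0.08, ANLN, of the cleavage furrow, by 1.90 ± 0.09, and PCNA, the sliding clamp, by 0.47 ± 0.06. CDK6, a kinase of the first gap phase, had 95.4, 117 and 112 CPM in xenografts against 445, 439.8 and 436 CPM in culture (log2 fold change -2.02 ± 0.08, adjusted p = 4.72e-10).

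Mitotic promoters are known for a cell cycle homology region, TTTGAA or TTCGAA, next to CCAAT boxes. Start regions of 4 mitotic genes follow (RefSeq, GRCh38.p14, 250 bases before the start), with those letters on either strand in capitals; the genes were chosen after their values were seen.
TOP2A (chr17:40417897-40418146, - strand): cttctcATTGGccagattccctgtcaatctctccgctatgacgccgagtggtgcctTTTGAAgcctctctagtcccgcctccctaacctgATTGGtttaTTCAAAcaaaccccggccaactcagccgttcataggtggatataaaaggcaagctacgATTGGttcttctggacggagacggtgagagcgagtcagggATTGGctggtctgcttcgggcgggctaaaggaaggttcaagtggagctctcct
HMMR (chr5:163460382-163460631, + strand): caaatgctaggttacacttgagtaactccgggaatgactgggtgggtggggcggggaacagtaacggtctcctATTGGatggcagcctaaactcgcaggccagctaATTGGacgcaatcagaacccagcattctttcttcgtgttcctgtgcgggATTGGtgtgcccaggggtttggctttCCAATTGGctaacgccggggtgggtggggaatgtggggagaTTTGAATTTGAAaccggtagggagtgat
MKI67 (chr10:128126424-128126673, - strand): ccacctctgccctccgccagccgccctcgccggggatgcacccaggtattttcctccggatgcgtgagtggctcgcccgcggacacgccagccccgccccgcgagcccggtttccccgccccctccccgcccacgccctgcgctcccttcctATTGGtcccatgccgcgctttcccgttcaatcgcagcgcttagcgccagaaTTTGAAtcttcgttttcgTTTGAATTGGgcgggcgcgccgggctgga
CCNB1 (chr5:69166900-69167149, + strand): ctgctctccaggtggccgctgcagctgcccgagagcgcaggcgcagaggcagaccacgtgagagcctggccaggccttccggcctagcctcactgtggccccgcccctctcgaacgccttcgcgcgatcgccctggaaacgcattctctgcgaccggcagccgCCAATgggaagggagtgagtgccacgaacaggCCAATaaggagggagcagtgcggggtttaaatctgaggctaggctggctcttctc
TTTGAA or TTCGAA stood in 67.9% of the 28 mitotic genes with an entry, in 6.06% of 33 replication genes, in 11.1% of tested genes and in 16.6% of all promoters. CCAAT stood in 75% of the mitotic and 57.6% of the replication genes. CCNB1 held only CCAAT in this window.

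Replication-dependent histone mRNAs end in a stem-loop and mostly lack a poly(A) tail, so polyadenylated RNA catches only part of them. Of 18 listed, 10 were tested, 6 rose and 0 fell. The linker histone gene HIST1H1C had 22.5, 21.4 and 23.6 CPM in xenografts against 4.33, 3.56 and 4.09 CPM in culture (log2 fold change 2.49 ± 0.13, adjusted p = 4.33e-09). Ribosome biogenesis genes, many of them MYC targets, were lower: 27 of 35 tested fell and 2 were called higher, with a median of -0.56. The number called higher was 0 without culture replicate 1 or 3, under total count scaling and with no filter. It was 1 without any one of the 3 xenografts, with DESeq2 or its size factors, with voom, under the replicate block, without mitochondrially encoded genes and with all 12 libraries in 1 fit. TFRC, the transferrin receptor for iron, had 48.9, 50.7 and 60.3 CPM in xenografts against 683, 676 and 685 CPM in culture. It was the deepest fall in this list (log2 fold change -3.67 ± 0.09, adjusted p = 8.61e-12). NPM1, the nucleolar chaperone, fell by 1.13 ± 0.06, while MYC itself had 61.7, 63.5 and 62.0 CPM in xenografts against 77.1, 68.1 and 75.5 CPM in culture (log2 fold change -0.24 ± 0.07, adjusted p = 0.00797), a call lost when all 12 libraries shared 1 spread (adjusted p = 0.0795, range 0.000707 to 0.0795 over the alternatives). Of 77 ribosomal protein genes, 35 were called higher and 7 lower, with a median of 0.13; without xenograft replicate 1 the number lower was 11, and under total count scaling 13.

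Genes of the extracellular matrix changed in both directions. Of 32 collagen genes, 22 were tested, 14 rose and 4 fell, and 3 had passed the filter through the xenografts alone and 1 through culture alone. COL1A1, a fibril chain, had 128, 155 and 286 CPM in xenografts against 7.05, 6.59 and 6.56 CPM in culture. Xenograft replicate 3 was the highest, and the groups were far apart (log2 fold change 4.82 ± 0.28, adjusted p = 1.34e-08). COL6A2, of the beaded filaments around cells, had 1207, 1894 and 2002 CPM in xenografts against 306, 302 and 300.4 CPM in culture (log2 fold change 2.49 ± 0.15, adjusted p = 2.06e-08). COL4A1 and COL4A2, the basement membrane chains, fell instead: COL4A1 had 182, 178 and 169.8 CPM in xenografts against 435, 445 and 433 CPM in culture (log2 fold change -1.31 ± 0.06, adjusted p = 2.01e-09), and COL4A2 fell by 1.01 ± 0.06. COL1A1 and COL3A1 also mark fibroblasts, and LUM is a further marker that rose. Other listed fibroblast markers were near 0 in xenografts: DCN had 0 counts in each xenograft, COL1A2 averaged 0.141 CPM and POSTN 0.33 CPM. The part of mouse fibroblast RNA in these rises was not tested.

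Of 36 tested matrix glycoproteins among 49 listed, 26 rose and 6 fell, with a median of 0.84, and 4 had passed the filter through the xenografts alone. IGFBP5 had 1578, 2457 and 2482 CPM in xenografts against 1.60, 1.19 and 1.06 CPM in culture. Replicate 1 was the lowest xenograft, and the groups were far apart (log2 fold change 10.74 ± 0.24, adjusted p = 7.29e-12). LTBP1, which anchors latent TGF-beta, had 118, 160.5 and 258 CPM in xenografts against 0.711, 1.60 and 1.23 CPM in culture (log2 fold change 7.23 ± 0.34, adjusted p = 2.29e-09). BGN, a small proteoglycan, rose by 6.68 ± 0.19, LAMA5, a laminin chain, by 3.04 ± 0.07, and SPARC, a matricellular protein that binds collagen, by 1.87 ± 0.08. THBS1, an inhibitor of vessel growth, had 151, 206 and 194.1 CPM in xenografts against 776, 772 and 792 CPM in culture (log2 fold change -2.09 ± 0.10, adjusted p = 2.61e-09), and the large proteoglycan VCAN fell by 1.76 ± 0.07. Proteases and their inhibitors split, with 16 of 31 tested higher and 11 lower, 3 through the xenografts alone and 2 through culture alone: MMP7, matrilysin, had 409, 341 and 395 CPM in xenografts against 9.49, 10.6 and 9.28 CPM in culture (log2 fold change 5.29 ± 0.10, adjusted p = 3.39e-12), while MMP1, interstitial collagenase, had 0.669, 0.435 and 0.354 CPM in xenografts against 5.75, 7.19 and 8.05 CPM in culture (log2 fold change -3.85 ± 0.29, adjusted p = 1.36e-07). MMP1 was tested through culture alone.

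Adhesion and mechanical response genes were more often lower than higher. Among 29 tested integrin and focal adhesion genes, 15 fell and 5 rose, and without xenograft replicate 1 the number that rose was 8. VCL, which links integrins to actin, fell by 1.10 ± 0.08 and ITGB3 by 1.75 ± 0.09, while ITGB4, the hemidesmosome chain, had 22.7, 17.1 and 16.8 CPM in xenografts against 1.54, 1.84 and 1.54 CPM in culture (log2 fold change 3.52 ± 0.18, adjusted p = 5.17e-09). Of 25 genes of YAP and TEAD, which respond to cell spreading, 18 fell and 4 rose, with a median of -1.09. Their summed level went the other way, with 9062, 10861 and 11093.5 CPM in xenografts against 6217, 6152 and 6175 CPM in culture. CYR61, a matricellular protein, had 116, 135 and 170.4 CPM in xenografts against 337, 318 and 334 CPM in culture (log2 fold change -1.23 ± 0.11, adjusted p = 6.89e-07). ANKRD1 had 0.201, 0.598 and 2.30 CPM in xenografts against 12.6, 12.4 and 13.4 CPM in culture. Xenograft replicate 3 was the highest of its group (log2 fold change -3.60 ± 0.42, adjusted p = 6.85e-06), and without it the fold change was -4.93. ANKRD1 was tested through culture alone. CTGF, a further target, had 10.4, 11.1 and 20.7 CPM in xenografts against 19.0, 16.3 and 19.4 CPM in culture, overlapping (log2 fold change -0.37 ± 0.21, adjusted p = 0.135), and without xenograft replicate 3 it passed at -0.78 (adjusted p = 9.86e-05, and 9.86e-05 to 0.414 over its alternatives). Of 27 tested actin genes and SRF targets 11 rose and 10 fell, and of 11 tubulins 3 rose and 5 fell, among them TUBA1A, which rose by 1.66 ± 0.12.

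TGF-beta genes were divided, 10 higher and 11 lower of 24 tested. The ligand gene TGFB2 had 9.03, 10.1 and 7.43 CPM in xenografts against 108, 111 and 111 CPM in culture (log2 fold change -3.64 ± 0.10, adjusted p = 2.16e-11), and TGFB1 rose by 1.08 ± 0.10. ID1 and ID3, targets of BMP signals that block differentiation factors, were far lower, ID1 with 19.7, 20.3 and 19.3 CPM in xenografts against 136, 132 and 126 CPM in culture (log2 fold change -2.73 ± 0.07, adjusted p = 1.62e-11) and ID3 with a change of -3.45 ± 0.09.

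Genes of epithelial junctions were more often higher than lower in the xenografts. Of those named here, CDH1, CLDN3 and DSP were tested through the xenografts alone. CDH1, the cadherin of epithelial junctions, had 13.7, 7.94 and 8.37 CPM in xenografts against 0.119, 0.0594 and 0.088 CPM in culture, from 5 counts in all culture libraries together (log2 fold change 6.71 ± 0.40, adjusted p = 1.83e-08). EPCAM, a surface protein of epithelia, had 111, 106 and 82.7 CPM in xenografts against 6.22, 6.47 and 6.25 CPM in culture (log2 fold change 3.98 ± 0.12, adjusted p = 6.51e-11). CDH2, the cadherin of mesenchyme and proximal tubule, fell by 0.75 ± 0.08 and ZEB1, a repressor of CDH1, had 12.4, 15.3 and 11.6 CPM in xenografts against 28.0, 25.7 and 26.7 CPM in culture (log2 fold change -1.03 ± 0.11, adjusted p = 4.14e-06). VIM, a mesenchymal marker, rose as given above, and of 20 listed genes of the epithelial to mesenchymal axis 13 were tested, 7 rose and 3 fell. Of 18 tested tight junction genes among 21, 13 rose and 3 fell, and 6 had been tested through the xenografts alone. CLDN3 had 16.7, 8.81 and 9.96 CPM in xenografts against 0.711, 0.416 and 0.748 CPM in culture (log2 fold change 4.196 ± 0.32, adjusted p = 1.44e-07), and TJP1, the scaffold that joins claudins to actin, fell by 1.55 ± 0.07. Desmosome genes rose for 7 of 10 tested and fell for 1, with 2 tested through the xenografts alone: DSP, the plaque protein desmoplakin, had 58.5, 32.7 and 26.5 CPM in xenografts against 0.415, 0.297 and 0.088 CPM in culture (log2 fold change 7.25 ± 0.43, adjusted p = 1.71e-08), and JUP, plakoglobin, rose by 4.90 ± 0.20. Of 18 keratins 10 were tested, 3 through the xenografts alone and 1 through culture alone, 6 rose and 2 fell.

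Genes of the kidney tubule were mostly higher where measured. Of 36 proximal tubule genes, 20 were tested, 7 through the xenografts alone and 1 through culture alone, and 17 rose while 2 fell. AQP1, the water channel of that segment, had 155, 183 and 149.5 CPM in xenografts against 0.178, 0.178 and 0.132 CPM in culture. It had 9 counts in all culture libraries together (log2 fold change 9.93 ± 0.17, adjusted p = 2.62e-12). MME, the brush border peptidase neprilysin, had 881, 1187 and 942 CPM in xenografts against 18.6, 18.4 and 16.8 CPM in culture (log2 fold change 5.81 ± 0.13, adjusted p = 5.87e-12). CUBN, which takes up filtered protein, had 28.96, 43.4 and 21.1 CPM in xenografts against 0.534, 1.25 and 0.88 CPM in culture (log2 fold change 5.13 ± 0.31, adjusted p = 2.3e-08). Each was above culture in every xenograft, and AQP1 and CUBN were tested through the xenografts alone. The brush border enzymes ENPEP and GGT1 rose by 3.25 ± 0.09 and 2.50 ± 0.07. Of 23 distal tubule and collecting duct genes 7 were tested, 3 through the xenografts alone, 5 rose and 1 fell, among those that rose AQP3, a water and glycerol channel, with 18.5, 22.8 and 26.9 CPM in xenografts against 1.07, 0.594 and 0.528 CPM in culture (log2 fold change 4.98 ± 0.24, adjusted p = 2.43e-09). AQP3 was among those tested through the xenografts alone. Among kidney transcription factors, 9 of 19 tested rose and 4 fell, with 3 tested through the xenografts alone. PAX8, the lineage factor of the tubule, had 805, 664 and 627 CPM in xenografts against 276, 259.7 and 260.2 CPM in culture (log2 fold change 1.40 ± 0.09, adjusted p = 3.15e-08), and HNF4G had 141, 204 and 118 CPM in xenografts against 10.97, 12.0 and 11.04 CPM in culture (log2 fold change 3.77 ± 0.18, adjusted p = 2.59e-09). PAX2 with 43.5, 32.7 and 29.8 CPM in xenografts against 31.9, 31.8 and 27.4 CPM in culture overlapped between settings (log2 fold change 0.22 ± 0.13, adjusted p = 0.141), and without xenograft replicate 3 it passed at 0.31 (adjusted p = 0.0283, and 0.0283 to 0.664 over its alternatives).

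Secretory and ciliary genes were often near 0 in culture, and some were near 0 in xenografts too. Of 30 mucosal genes, 9 had 0 counts in the xenografts and 13 had 0 counts in culture. In this list 11 were tested, 8 through the xenografts alone and 1 through culture alone, 10 rose and 1 fell. PIGR, which carries polymeric antibodies across epithelia, had 302, 181 and 179.8 CPM in xenografts against 0.119, 0.178 and 0 CPM in culture, from 5 counts in culture (log2 fold change 11.17 ± 0.39, adjusted p = 1.96e-10). PIGR was tested through the xenografts alone, and its fold change was 11.89 without culture replicate 2 and 10.46 without culture replicate 3. CP, the copper carrier ceruloplasmin, had 857, 839.5 and 1032 CPM in xenografts against 41.8, 44.7 and 44.0 CPM in culture, without overlap (log2 fold change 4.38 ± 0.10, adjusted p = 5.87e-12). MUC1, a membrane mucin, rose by 3.14 ± 0.16. Of 46 genes of motile cilia, 29 were tested, 9 through the xenografts alone and 2 through culture alone, 21 rose and 2 fell. The number that fell was 1 without culture replicate 2 or 3 and without xenograft replicate 1 or 3. FOXJ1, the master regulator of these cilia, had 7.96, 5.6 and 6.07 CPM in xenografts against 3 counts in culture, all in replicate 2, a ratio of 122 (counting interval 41.2 to 592). Without culture replicate 2 its fitted change was 9.87 in place of 6.76.

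Interferon, antigen presentation and inflammatory genes were mostly higher in the xenografts. The 12 listed leukocyte markers summed to 154, 203 and 139 CPM in xenografts and 56.5, 59.2 and 61.2 CPM in culture; 3 were tested, 2 rose and 0 fell. NCAM1, a cell adhesion molecule of natural killer cells and of neurons, made up most of the sum with 135, 175 and 129 CPM in xenografts against 53.1, 57.0 and 58.8 CPM in culture, LAPTM5 had 14.1, 25.3 and 6.66 CPM in xenografts against 0.83, 0.416 and 1.19 CPM in culture, and PTPRC, the pan-leukocyte marker, averaged 0.223 CPM in xenografts and 0.478 CPM in culture. Their part in these rises was not tested. Of 43 interferon-response genes tested, 37 rose and 2 fell, with a median of 1.56, and 4 had passed the filter through the xenografts alone. With all 12 libraries in 1 fit the number that fell was 1. OAS1, a sensor of double-stranded RNA, had 36.9, 25.5 and 37.4 CPM in xenografts against 1.96, 1.49 and 1.45 CPM in culture (log2 fold change 4.35 ± 0.19, adjusted p = 1.42e-09). MX1, an antiviral GTPase, had 41.0, 25.2 and 49.8 CPM in xenografts against 3.56, 2.91 and 1.72 CPM in culture (log2 fold change 3.86 ± 0.27, adjusted p = 8.2e-08). IFITM3, a membrane antiviral protein, had 474, 433 and 514 CPM in xenografts against 76.7, 74.2 and 72.3 CPM in culture (log2 fold change 2.67 ± 0.08, adjusted p = 3.78e-11), though its reads may be shared with IFITM2. All were above culture in every xenograft. IFIT1, another induced gene, had 35.8, 25.3 and 36.3 CPM in xenografts against 32.1, 30.6 and 31.9 CPM in culture, overlapping (log2 fold change 0.04 ± 0.12, adjusted p = 0.798).

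Antigen presentation through MHC class I rose for 13 of 15 tested genes and fell for 0. B2M, the shared light chain, had 1826, 1812 and 1917 CPM in xenografts against 639, 646 and 678 CPM in culture (log2 fold change 1.5 ± 0.07, adjusted p = 1.29e-09). Reads can be shared among class I heavy chain genes, so the count of genes is uncertain, which does not touch B2M. PSMB9, a subunit of the immunoproteasome, rose by 2.29 ± 0.08, and NLRC5, the activator of class I genes, by 0.86 ± 0.13. For class II, CD74, the invariant chain, had 97.5, 79.3 and 80.7 CPM in xenografts against 5.28, 3.56 and 4.40 CPM in culture (log2 fold change 4.28 ± 0.13, adjusted p = 6.6e-11), while CIITA, the master activator, had 2.54, 1.90 and 2.00 CPM in xenografts against 1.72, 1.78 and 1.94 CPM in culture, overlapping (log2 fold change 0.24 ± 0.27, adjusted p = 0.449), and 10 of 13 listed genes were not tested.

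Among NF-kB targets and chemokines, 28 of 32 tested rose and 2 fell, with a median of 1.97 and 7 tested through the xenografts alone. CXCL8, which draws neutrophils, had 60.3, 49.3 and 47.0 CPM in xenografts against 3.26, 3.09 and 3.48 CPM in culture (log2 fold change 3.98 ± 0.13, adjusted p = 9.86e-11). CCL2, which draws monocytes, had 31.0, 29.7 and 25.8 CPM in xenografts against 0.949, 0.416 and 0.484 CPM in culture (log2 fold change 5.56 ± 0.21, adjusted p = 3.34e-10). CCL2 was tested through the xenografts alone. SOD2, mitochondrial superoxide dismutase, had 629.9, 626 and 604 CPM in xenografts against 90.7, 89.5 and 97.8 CPM in culture (log2 fold change 2.74 ± 0.07, adjusted p = 1.11e-11). The cytokine IL6 rose by 2.63 ± 0.21, and IL11, of the same family, had 0.87, 1.47 and 0.943 CPM in xenografts against 10.97, 11.6 and 12.1 CPM in culture, below culture in every xenograft (log2 fold change -3.38 ± 0.21, adjusted p = 2.75e-08). For complement and acute phase genes, of 34 listed, 23 were tested, 8 through the xenografts alone, 20 rose and 1 fell, and without xenograft replicate 3 the number that fell was 2. C3, the central component, had 791, 713 and 629.5 CPM in xenografts against 8.30, 10.5 and 8.54 CPM in culture. No culture library came near the xenografts (log2 fold change 6.29 ± 0.12, adjusted p = 3.7e-12). C1R and C1S, the proteases that start the classical pathway, rose by 5.77 ± 0.14 and 6.17 ± 0.16. SERPINA1, the elastase inhibitor, had 942, 1182 and 903 CPM in xenografts against 65.7, 65.8 and 61.5 CPM in culture (log2 fold change 3.97 ± 0.11, adjusted p = 2.16e-11), and SAA1, an acute phase protein, had 42.2, 33.3 and 43.4 CPM in xenografts against 0.356, 1.13 and 0.528 CPM in culture (log2 fold change 5.90 ± 0.23, adjusted p = 5.11e-10). SAA1 was tested through the xenografts alone. Checkpoint ligands moved both ways, 3 higher and 5 lower of 11 tested, 2 through the xenografts alone and 1 through culture alone: PVR, the ligand of TIGIT, had 57.5, 66.3 and 54.4 CPM in xenografts against 244, 244 and 241 CPM in culture (log2 fold change -2.03 ± 0.08, adjusted p = 4.02e-10), and CD274, which encodes PD-L1, was called lower at -0.50 ± 0.19 (adjusted p = 0.0357), a call lost without culture replicate 2 or 3 and without xenograft replicate 2 or 3 (adjusted p = 0.0912, 0.115, 0.0586 and 0.0785). The call was also lost with DESeq2 and in a fit of protein-coding genes alone, where the adjusted p lay just above 0.05. Over its alternatives the adjusted p of CD274 ran from 0.017 to 0.115.

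Growth factor genes moved in both directions. Of 25 tested genes of EGFR, FGF and related signals, 9 rose and 13 fell, with 2 tested through the xenografts alone. FGF2, the basic fibroblast growth factor, had 13.1, 13.7 and 14.3 CPM in xenografts against 109.9, 112 and 112 CPM in culture (log2 fold change -3.02 ± 0.07, adjusted p = 1.01e-11). NRG1, the ligand of ERBB receptors, had 5.62, 8.75 and 9.08 CPM in xenografts against 51.2, 51.6 and 51.3 CPM in culture (log2 fold change -2.70 ± 0.13, adjusted p = 3.62e-09). The receptors EGFR and MET fell by 0.65 ± 0.11 and 0.92 ± 0.07, whereas FGFR4 had 276, 261 and 261 CPM in xenografts against 74.0, 65.6 and 65.4 CPM in culture (log2 fold change 1.96 ± 0.07, adjusted p = 2.52e-10). TGFA, a HIF-induced EGFR ligand, rose by 0.93 ± 0.07. Among immediate early genes, 18 of 33 rose and 10 fell: JUN had 640.4, 785.8 and 682 CPM in xenografts against 169, 168 and 172 CPM in culture (log2 fold change 2.05 ± 0.08, adjusted p = 5.11e-10), EGR1 rose by 2.15 ± 0.12 and FOS by 1.85 ± 0.24, but FOSL1, a later factor of sustained ERK signals, had 23.3, 30.01 and 24.3 CPM in xenografts against 141, 148 and 144 CPM in culture (log2 fold change -2.48 ± 0.09, adjusted p = 2.95e-10). WNT7B, a Wnt ligand, had 5.95, 4.46 and 3.36 CPM in xenografts against 103, 101 and 100.2 CPM in culture, all xenografts far under culture (log2 fold change -4.48 ± 0.13, adjusted p = 4.74e-11). In the Wnt and Notch list 10 of 18 tested fell and 5 rose.

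The kinases named in the title of the study, mTORC1 and TBK1, act on proteins, and these data hold RNA levels alone. Of 31 tested genes of the 2 pathways, 15 rose and 9 fell. MTOR, the kinase, had 76.9, 89.1 and 82.1 CPM in xenografts against 147, 148 and 139 CPM in culture (log2 fold change -0.81 ± 0.07, adjusted p = 4.66e-07). TBK1, an innate immune kinase, had 20.1, 21.6 and 21.2 CPM in xenografts against 26.8, 26.4 and 29.04 CPM in culture (log2 fold change -0.39 ± 0.09, adjusted p = 0.0015), and its relative IKBKE rose by 0.91 ± 0.09. TMEM173, which encodes the DNA-response adaptor STING, had 78.7, 70.2 and 81.9 CPM in xenografts against 25.1, 26.0 and 24.6 CPM in culture (log2 fold change 1.61 ± 0.08, adjusted p = 3.45e-09). RPTOR, the mTORC1 scaffold, had 50.8, 52.3 and 83.2 CPM in xenografts against 90.05, 78.6 and 75.8 CPM in culture, overlapping, and was called lower (log2 fold change -0.39 ± 0.15, adjusted p = 0.0384). That call was lost with DESeq2, with protein-coding genes alone, without culture replicate 1 or 2 and without xenograft replicate 1 or 2 (adjusted p = 0.126, 0.0548, 0.157 and 0.162), within a range of 1.05e-07 to 0.183 over its alternatives. Lysosome and autophagy genes rose for 16 of 34 and fell for 9: TFEB, their activator, had 40.1, 43.4 and 41.6 CPM in xenografts against 15.1, 19.1 and 14.9 CPM in culture (log2 fold change 1.35 ± 0.10, adjusted p = 1.4e-07), and SQSTM1, an autophagy receptor, fell by 0.65 ± 0.06.

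Markers of host cell types were measured on the human genes, because mouse RNA in a tumour can map to them where sequences match, and the sources used here name no step that removes mouse reads. Of 14 macrophage markers 2 were tested and 0 passed the threshold, and 6, among them C1QB, C1QC, LYZ and TYROBP, had 0 counts in the xenografts. Of 8 erythroid markers, 0 were tested, and HBA1, HBA2 and HBB had 0 counts in all 6 libraries. For HBB this allows a level of up to 0.0596 CPM over the xenografts (3 counts, counting error only). HBA1 and HBA2 are near-identical copies whose reads the counting may lose, so their zeros set no such bound. Of 13 endothelial markers 4 were tested, 1 rose and 1 fell, and the rise was lost without any one of the 3 culture libraries, without xenograft replicate 1 or 2, with DESeq2 or voom, under total count scaling, with no filter, without mitochondrially encoded genes and under the replicate block: CDH5 had 0 counts in xenografts, and EGFL7 averaged 4.25 CPM in xenografts and 16.6 CPM in culture. Of 12 leukocyte markers 3 were tested and 2 rose, NCAM1 and LAPTM5, while CD3E and CD2 had 0 counts in xenografts. LAPTM5, a lysosomal membrane protein of blood cells, averaged 15.4 CPM in xenografts and 0.811 CPM in culture, with a change of 4.18, and 3.60 without xenograft replicate 2. LAPTM5 was tested through the xenografts alone. Of 13 fibroblast markers 6 were tested, 2 through the xenografts alone and 2 through culture alone, 4 rose and 2 fell. The number that fell was 1 without culture replicate 1 or 3, without any one of the 3 xenografts, with DESeq2 or voom, with no filter, under the replicate block and with all 12 libraries in 1 fit. The summed fibroblast list was 246, 309 and 435 CPM in xenografts and 10.6, 10.3 and 11.3 CPM in culture, and in xenografts COL1A1, COL3A1 and LUM made up most of it. Skeletal muscle markers summed to 2.88, 4.51 and 3.24 CPM in xenografts and 0.119, 0.238 and 0.528 CPM in culture. Of the 10 listed, 0 were at 0 counts in the xenografts and 5 in culture. Only MYH4 was tested, through the xenografts alone, and it rose. Tested members that rose and fell numbered 4 and 1 of 7 for pericytes and smooth muscle (1 tested through the xenografts alone and 2 through culture alone), 1 and 0 of 1 for neutrophils (tested through the xenografts alone), 0 and 1 of 2 for adipocytes, 1 and 1 of 2 for keratinocytes, and 2 and 0 of 2 for nerve (1 tested through the xenografts alone). How much mouse RNA any gene holds was not tested.

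**Figure D4:**
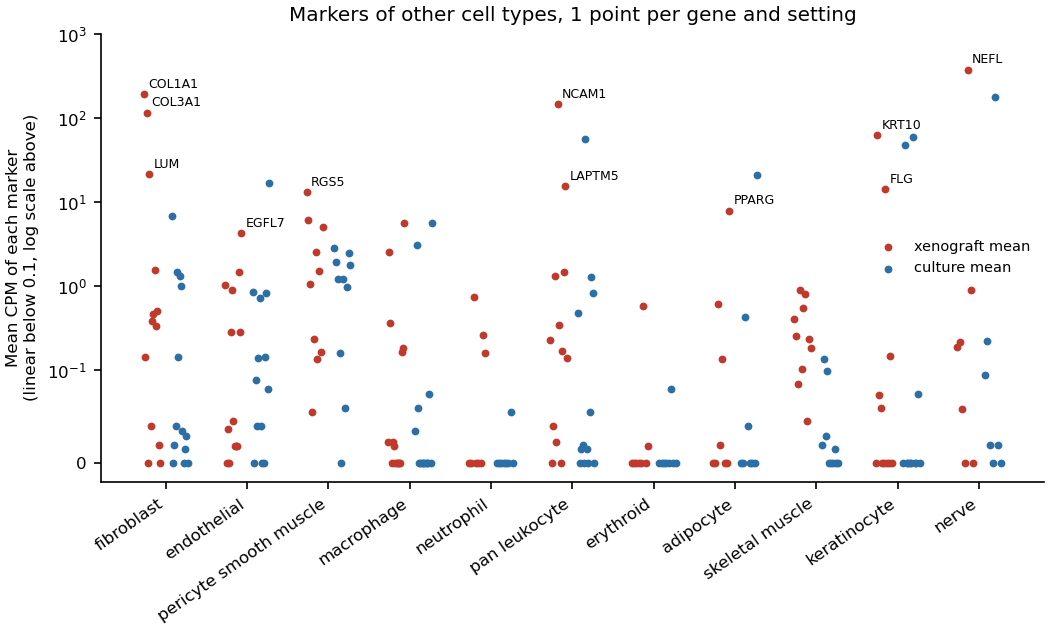
Mean CPM of each marker gene of 11 other cell types in empty-vector xenografts (red, left) and culture (blue, right), 1 point per gene, on an axis that is linear below 0.1 and logarithmic above. Most markers lie at or near 0 in both settings; COL1A1, COL3A1 and LUM stand out among fibroblast markers and NCAM1 and NEFL were measured in both settings.

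The same contrast in cells with restored BBOX1 shares no library with this one and gives its values side by side. There, 5740 genes (36.1% of 15906 tested) were higher and 5100 (32.1%) lower in xenografts than in culture, 68.2% in either direction. BBOX1 xenograft replicate 1 stood apart: its counts differed from replicates 2 and 3 with a chi-square per degree of freedom of 45.9 and 45.6, against 9.41 between replicates 2 and 3. Without it 6289 genes were higher and 6158 lower. Of the 5650 genes higher in empty-vector xenografts, 4400 were also higher in BBOX1 xenografts, 77.9% of the empty-vector list and 76.7% of the BBOX1 list. Of the 5273 lower genes 4329 were also lower, 82.1% and 84.9% of each list, and 55 and 22 genes were called in opposite directions. Glycolytic genes, 8 higher and 6 lower in empty-vector xenografts, were 2 higher and 14 lower in BBOX1 xenografts. Ribosomal protein genes, 35 higher and 7 lower in empty-vector xenografts, were 5 higher and 23 lower in BBOX1 xenografts. Medians of the interferon list were 1.56 and 1.58, and those of the mitosis list -1.04 and -1.72, in empty vector and BBOX1.

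The difference itself, the empty-vector change minus the BBOX1 change fitted over all 12 libraries, passed for 552 genes in the positive (3.26%) and 326 in the negative direction (1.93%) of 16927 tested, 5.19% in all. Scaled by total counts the split was 282 and 398, and without BBOX1 xenograft replicate 1 it was 2750 and 1432, and it lay between 206 and 706 in the positive and between 63 and 493 in the negative direction when any other single library was left out. The genes named next were chosen, after their values were seen, because their call held in each of 20 alternative fits, so that this says nothing about other genes. In brackets is the difference, with its value without BBOX1 xenograft replicate 1 last. PLIN2 rose by 2.48 in empty-vector cells and by 1.33 in BBOX1 cells (difference 1.15 ± 0.12, adjusted p = 0.000251, 1.16). HNF4G, a nuclear receptor, rose by 3.77 and had a change of 0.13 in BBOX1 cells, not past the threshold there (difference 3.65 ± 0.29, adjusted p = 1.11e-05, 3.96). MAP3K4, a stress kinase, changed by 2.12 in empty-vector and -0.88 in BBOX1 cells (difference 3.005 ± 0.18, adjusted p = 2.77e-07, 3.09). PLAC8 changed by 0.66 and -2.40 (difference 3.07 ± 0.18, adjusted p = 2.77e-07, 3.06), ANKRD50 by 2.03 and -0.95 (difference 2.98 ± 0.25, adjusted p = 1.55e-05, 3.25), TIPARP, a target of the aryl hydrocarbon receptor, by 1.86 and -0.45 (difference 2.31 ± 0.21, adjusted p = 3.34e-05, 2.44), and SNX13 by 1.47 and -0.69 (difference 2.16 ± 0.23, adjusted p = 0.000251, 2.37), with the empty-vector change first each time. FAM126B rose by 3.20 in empty-vector cells, against -0.30 in BBOX1 cells, not past the threshold there (difference 3.51 ± 0.21, adjusted p = 2.81e-07, 3.47).

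Members of the lists also differed. SLC2A1 rose in empty-vector xenografts (0.46) and fell in BBOX1 xenografts (-0.41) (difference 0.88 ± 0.13, adjusted p = 0.00204, 0.91). CA12 rose in both, by 3.53 and 2.63 (difference 0.90 ± 0.17, adjusted p = 0.00902, 0.79). LUM, a small proteoglycan, rose by 3.84 in empty-vector and had a change of 0.62 in BBOX1 cells, not past the threshold there (difference 3.23 ± 0.61, adjusted p = 0.00969, 2.81). SERPINA1 rose by 3.97 and 2.42 (difference 1.56 ± 0.18, adjusted p = 0.000332, 1.44) and EPCAM by 3.98 and 2.78 (difference 1.21 ± 0.24, adjusted p = 0.0131, 1.26). Falls were shallower in empty-vector cells for TXNRD1 (-1.15 and -2.97), SLC7A11 (-3.40 and -4.42), CCNB1 (-1.001 and -1.68) and PCNA (-0.47 and -1.06), empty vector first. The differences were 1.82, 1.02, 0.68 and 0.60, with adjusted p of 0.000332, 0.012, 0.00511 and 0.004, and without BBOX1 xenograft replicate 1 they were 2.11, 1.31, 0.78 and 0.64.

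In the negative direction, TXNIP, an inhibitor of thioredoxin and of glucose uptake, rose by 3.06 in empty-vector and 4.08 in BBOX1 cells (difference -1.01 ± 0.15, adjusted p = 0.0024, -0.86). LAMA5 rose by 3.04 and 3.74 (difference -0.69 ± 0.11, adjusted p = 0.00368, -0.72), and WNT7B fell by 4.48 and 3.05 (difference -1.42 ± 0.27, adjusted p = 0.0103, -1.10). FILIP1L changed by 2.09 and 3.24 (difference -1.14 ± 0.15, adjusted p = 0.00096, -1.01), ADGRB2 by 1.48 and 2.89 (difference -1.41 ± 0.17, adjusted p = 0.00063, -1.43) and SPATA13 by 0.63 and 1.64 (difference -1.002 ± 0.14, adjusted p = 0.00138, -0.97), in empty-vector and BBOX1 cells. The protease ADAMTS5 fell by 0.48 in empty-vector cells and rose by 1.04 in BBOX1 cells (difference -1.51 ± 0.17, adjusted p = 0.000286, -1.40). FHL1, a LIM protein, fell by 2.47 and 1.55 (difference -0.92 ± 0.13, adjusted p = 0.00209, -0.88). The adaptor GRB14 had a change of -0.15 in empty-vector cells, not past the threshold (-0.37 and past it without xenograft replicate 1), and rose by 1.19 in BBOX1 cells (difference -1.33 ± 0.19, adjusted p = 0.00156, -1.36), and UBN2 had -0.18, not past it (-0.22 and past it without xenograft replicate 2), and rose by 0.67 (difference -0.85 ± 0.12, adjusted p = 0.00121, -0.88).

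**Figure D5:**
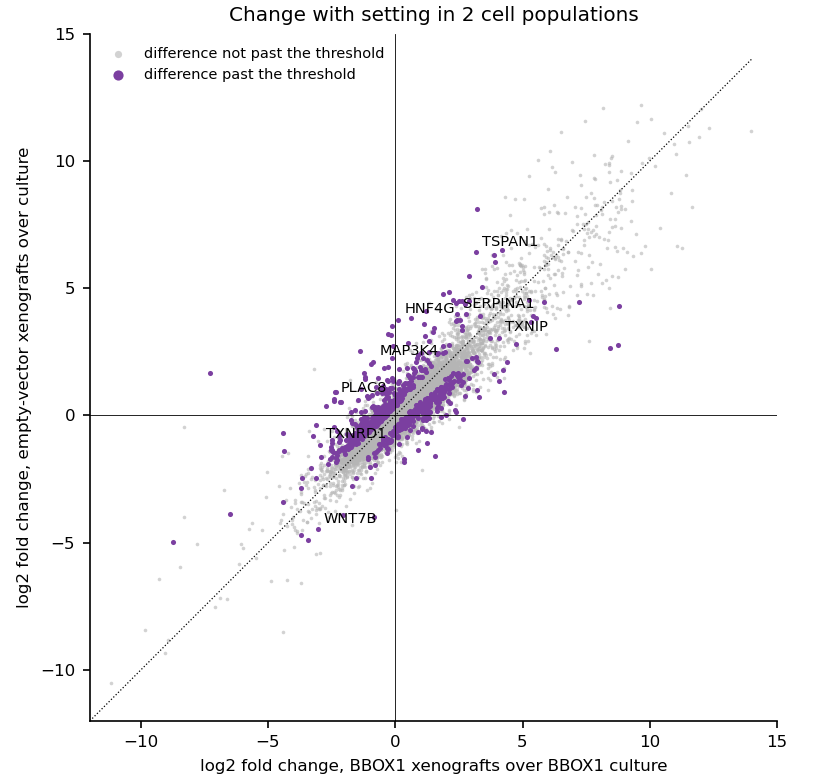
Each point is a gene tested in both contrasts, placed by its log2 fold change in BBOX1 cells (x axis) and in empty-vector cells (y axis), xenograft over culture; purple points passed the test of the difference and the dotted line marks equal change. Most points lie along the line, with HNF4G and MAP3K4 above it and TXNIP below it.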

How the data were processed

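Polyadenylated RNA was sequenced as paired ends of 100 bases from NEBNext Ultra libraries, per the labels' protocols. The authors deposited 1 table of raw read counts for 58735 genes in 12 libraries, with no normalization. The submitters' processing notes name hg38 as the build and list fastp, STAR, featureCounts and DESeq2, with no version and no role; a step that removes mouse reads is not among the sources used here. Reads of genes with near-identical copies may be split or lost by the counting. All gene IDs and names in the table matched GENCODE 29 (GRCh38).

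Groups were taken from the labels, with 3 libraries each. Counts were tested with edgeR 4.0.16 (quasi-likelihood test, TMM, filterByExpr with a minimum count of 10, Benjamini-Hochberg over all genes tested, threshold 0.05), after the fitting script was tested on simulated data. A gene needed about 0.591 CPM in 3 libraries to pass the filter. Standard errors were taken from the fold change and its F statistic, as the change over the root of F. DESeq2 1.42.0, limma 3.58.1 (voom) and other scalings, filters and left-out libraries were run as alternatives. Same-numbered libraries of the 2 settings did not deviate together, with correlations of 0.016, 0.0034 and -0.0088, so the numbers were not treated as pairs. Intervals and floors cover counting error only.

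The 50 pathway lists and 11 marker lists, and the members shown, were chosen with earlier results of these data known. Genes named are the 15 largest and the 10 most abundant of the changed protein-coding genes in each direction, up to 5 called members a list and direction, core genes of the lists, 3 markers a list and the 8 largest differences in each direction. Some genes that this rule selects are not reported here. Markers given as near 0 and the promoters printed were chosen after their values were seen.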

Additional observations from a re-analysis of the deposited data

Results flagged for a closer look

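The change with setting differed between empty-vector and BBOX1 cells by edgeR's test of the difference over 12 libraries for 552 genes in the positive and 326 in the negative direction, of which the 27 named above are given here. The values that follow are the empty-vector change minus the BBOX1 change on the log2 scale. Differences above 2 were found for MAP3K4 (3.005), FAM126B (3.51), ANKRD50 (2.98), TIPARP (2.31), SNX13 (2.16), PLAC8 (3.07), HNF4G (3.65) and LUM (3.23). Smaller positive differences were found for PLIN2 (1.15), CA12 (0.90), SLC2A1 (0.88), TXNRD1 (1.82), SLC7A11 (1.02), SERPINA1 (1.56), EPCAM (1.21), CCNB1 (0.68) and PCNA (0.60). Negative differences were found for TXNIP (-1.01), FILIP1L (-1.14), ADGRB2 (-1.41), SPATA13 (-1.002), LAMA5 (-0.69), GRB14 (-1.33), UBN2 (-0.85), ADAMTS5 (-1.51), WNT7B (-1.42) and FHL1 (-0.92). BBOX1 xenograft replicate 1 stood apart from the other BBOX1 xenografts, and the values without it are given beside each gene above. These genes were chosen because their calls held under every alternative fit, so they do not show its part in other genes.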

How the results depend on the processing

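Counts of genes that were higher or lower in empty-vector xenografts stayed within 1.5 times under every other scaling, filter, tool, left-out library and a fit of all 12 libraries. Requiring a fold of at least 2 left 2889 and 1569. With libraries left out in turn, the counts ran from 5277 to 5725 and from 4897 to 5483, and in BBOX1 cells from 5206 to 6289 and from 4588 to 6158. With the replicate number as a block they were 5568 and 5248; the block, a number shared by labels alone, changed no other main count by over 1.5 times except negative differences (372 positive and 176 negative under the replicate block). Total count scaling moved the median over all genes to -0.05 and gave 5049 higher and 5901 lower. Positive and negative differences between the cell populations, 552 and 326, were 282 and 398 under total count scaling, 1092 and 570 with no filter, 1088 and 605 with DESeq2 and 932 and 571 with voom. Over single left-out libraries they ran from 206 to 2750 and from 63 to 1432. The cause of these shifts was not tested. Genes near 0 in culture alone numbered 106 at a mean under 0.05 CPM and 431 under 0.5 CPM, and those near 0 in xenografts 70 under 0.5 CPM.

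Of 3102 values of named genes under alternatives, 3067 kept their direction and their side of the threshold, 20 lost the call, 15 gained one and 0 reversed. Of 1904 list counts, 72 moved by over 1.5 times. Voom moved the fitted change of genes at 0 counts in one setting, such as HHLA2 and ATOH8, by over 1.5 times. Median changes of 5 lists turned sign under some alternative, among them glycolysis and checkpoint ligands. The wider spread of xenografts limits small changes in abundant genes, and counts under about 10 limit rare ones.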
